A study of Mus musculus with 6 samples.

Results

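The genes described here encode the machinery that brings proteins into mitochondria, the TIM and TOM translocases with the proteins that assist them. They were chosen by name as the Ensembl genes whose symbols begin with Timm or Tomm and a number, together with Pam16, Grpel1, Grpel2, Pmpca, Pmpcb, Samm50, Mtx1, Mtx2, Chchd4 and Gfer, and 1 entry marked as a pseudogene was left out. This rule found 36 genes among the 60193 listed, and it used no measured value. All 36 were found by identifier in the GENCODE M39 annotation of GRCm39, in which 35 are protein-coding and Tomm6os is a lncRNA.

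Nearly all mitochondrial proteins are made in the cytosol and enter through the TOM complex of the outer membrane. From there, proteins with a presequence pass through the TIM23 complex of the inner membrane, pulled by the PAM motor, and lose the presequence to the matrix processing peptidase (MPP), while carrier proteins are handed by small TIM chaperones to the TIM22 complex. Beta-barrel proteins are inserted into the outer membrane by the sorting and assembly machinery (SAM) with the metaxins, and the disulfide relay (MIA) folds proteins in the intermembrane space. Oocytes hold very many mitochondria, which the early embryo inherits.

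Metaphase II (MII) oocytes of female ICR mice aged 42 to 45 weeks, which are near the end of their reproductive lifespan, were compared after maturation in vitro (IVM) and in vivo (IVO). Both groups came from mice primed with gonadotrophin. For IVM, denuded germinal vesicle oocytes from antral follicles were cultured in M16 medium for 12 h, and for IVO, oocytes were taken from the oviducts at 14 h after hCG and freed of their cumulus cells. Each group had 3 biological replicates, each a pool of 20 MII oocytes from 3 mice, so the values describe pools and not single animals or oocytes. The groups differ in the site of maturation, the cumulus cells, the hormone exposure and the time, and these cannot be told apart here. No oocytes from before maturation were among the samples, so whether a difference arose in IVM or in IVO oocytes cannot be told.

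The values are the authors' FPKM, the fragments of a gene per kilobase of its transcript, scaled to the size of the library. FPKM summed to between 1.83e+06 and 2.11e+06 per IVM sample and to between 1.56e+06 and 1.64e+06 per IVO sample, and the depth inferred from the smallest steps between values was 16500000 to 19500000 fragments. At this depth 3 fragments on a transcript of 1000 bases correspond to 0.195 to 0.232 FPKM. All 8 oocyte markers (Zp1, Zp2, Zp3, Gdf9, Bmp15, Mos, Dppa3 and Nlrp5) were measured at a mean of 1 FPKM or more, and their FPKM summed to 9530.5–12265 in IVM and 7697–8221 in IVO samples. Of 12 markers of cumulus and granulosa cells, 2 (Fshr and Cyp19a1) reached a mean of 1 FPKM, Amh was listed at 0 in every sample, and the 12 together had 24.1–33.9 FPKM in IVM and 30.5–35.6 FPKM in IVO samples. None of 4 oviduct and 4 blood markers reached a mean of 1 FPKM, with sums of at most 0.390 FPKM for the oviduct and 3.65 FPKM for blood. In a pool of whole oocytes, less of an mRNA among the transcripts of an oocyte and a smaller share of oocytes that hold it cannot be told apart.

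The first question was how much of the import machinery differed between IVM and IVO oocytes. Of the 36 genes 27 were tested, and 10 of these (37.0%) were called lower in IVO oocytes, against 17.9% of all tested genes. The 10 lay in the TOM, TIM23, TIM22, metaxin and MIA groups, with Gfer the 1 tested gene of MIA, and none was of MPP. None of the 27 was called higher, although Timm8a1 was under other scalings of the libraries and without the third IVO sample. Outside the 36 genes, Hspa9 of the motor was called higher, as given below. The genes called lower were Mtx2, Timm17b, Timm9, Tomm7, Tomm40, Pam16, Timm22, Gfer, Timm10b and Tomm20. Their mean FPKM was between 2.35-fold and 12.7-fold higher in IVM oocytes. The main channel of TIM23, Timm23, did not pass the test, nor did the receptor Tomm22. The 36 genes together took 0.147%, 0.158% and 0.15% of the summed FPKM of the 3 IVM samples, but 0.119% of that of each IVO sample.

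A gene was called at |log2FC| ≥ 1 and an adjusted p-value under 0.05 by limma on log2(FPKM + 1), with the Benjamini-Hochberg method over all 18818 genes with a mean of at least 1 FPKM. The log2FC of IVO against IVM on this scale comes out smaller than the true change where FPKM is low. Of the 36 genes 27 passed this filter, and 10 of the 27 (37.0%) were called lower in IVO oocytes, against 17.9% of all tested genes. None was called higher, against 0.606% of all tested genes. At an unadjusted p-value under 0.05 there were 14 lower and 1 higher of the 27, against 31.4% and 5.56% of all tested genes. The 3 IVO values lay below the 3 IVM values without overlap for 15 of the 27 (55.6%, against 32.6% of all tested genes) and above them for 1 (3.70%, against 9.62%). The median log2FC was -0.66 over the 27 genes and -0.30 over all tested genes, and 20 of the 27 lay below the latter. With median-ratio scaling of the libraries, which moved the median of all tested genes to -0.04, the median of the 27 was -0.47, 7 were called lower (11.3% of all tested genes) and 1, Timm8a1, was called higher (2.06%). The 10 called genes had a negative log2FC in every alternative, and 5 of them (Mtx2, Timm17b, Timm9, Tomm7 and Pam16) were called in all 18 refits. Oocyte markers moved the same way, with 4 of 8 called lower, 6 of 8 lower in IVO without overlap, none called higher and a median log2FC of -1.48. The zona pellucida genes Zp1 (log2FC -2.43), Zp2 (-3.69) and Zp3 (-3.13) and the maternal-effect gene Nlrp5 (-1.99) were called lower in IVO oocytes. Dppa3, which made up most of the summed FPKM of these markers, had a log2FC of -0.17 (adjusted p = 0.584). The FPKM of Zp2 was 874, 398 and 414 in IVM and 43.6, 42.4 and 33.6 in IVO samples, and the part of such a shift in the values of the import genes was not tested.

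**Figure D1:**
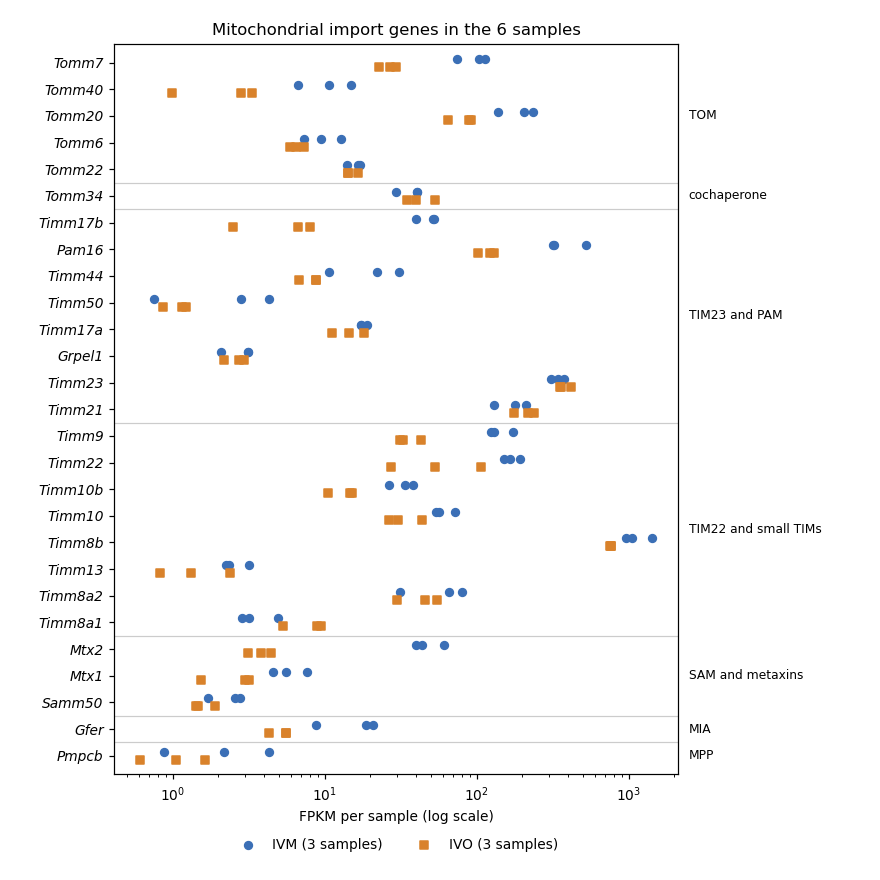
FPKM of the 27 tested import genes in each sample on a log axis, with 1 row per gene, IVM samples as blue circles, IVO samples as orange squares, and the role of each group of genes at the right. The rows of Mtx2 and Timm17b show the widest gaps between the groups, with 40.2 to 60.8 against 3.13 to 4.42 FPKM and 39.8 to 52.4 against 2.48 to 8.06 FPKM, while the groups overlap for Timm23 and Tomm22.

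**Figure D2:**
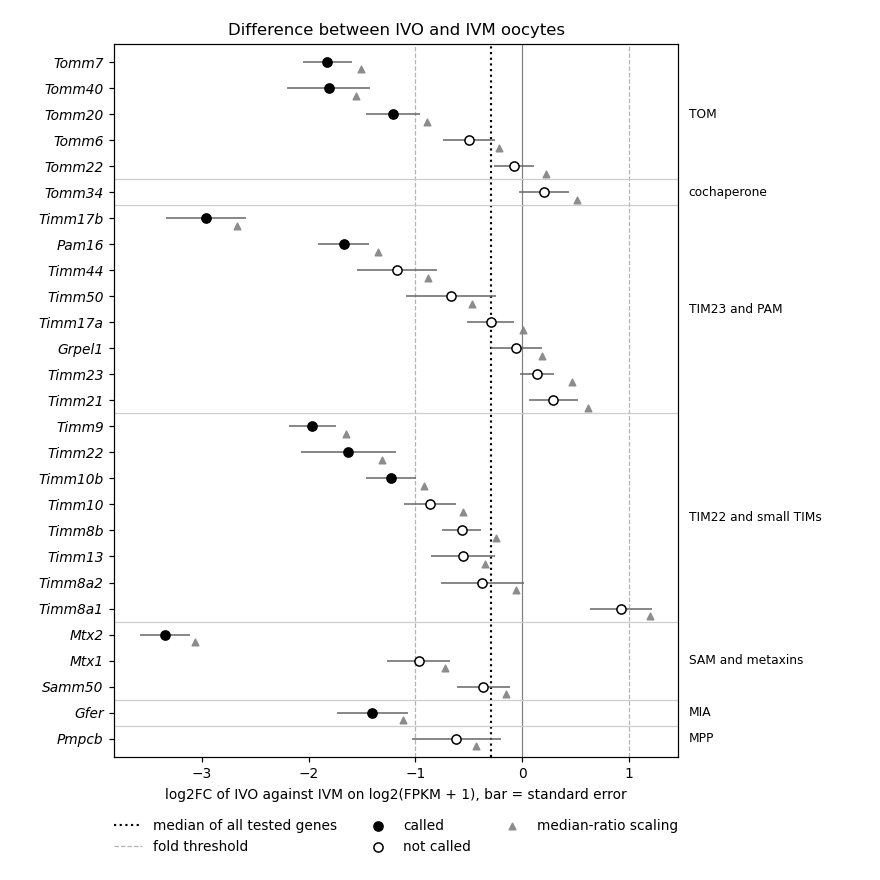
The log2FC of IVO against IVM on log2(FPKM + 1) for the 27 tested import genes, with the standard error as a bar, filled circles for the 10 called genes and grey triangles for the log2FC after median-ratio scaling. All filled circles lie left of -1 and Timm8a1 lies farthest to the right at 0.93, and median-ratio scaling moves every gene to the right.

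Of the TOM complex, 5 of 9 genes were tested and 3 were called lower, against 17.9% of all tested genes. The median log2FC was -1.21, against -0.30. The small subunit Tomm7, which modulates the assembly of the complex, is on chromosome 5 from 24043831 to 24049245. The FPKM of Tomm7 was 114, 104 and 73.9 in IVM and 26.9, 22.9 and 29.7 in IVO samples. Every IVM value was more than double every IVO value, with a log2FC of -1.82 (SE 0.23, adjusted p = 0.00278). The FPKM of Tomm40, the channel through which precursors cross the outer membrane (chromosome 7, 19435238 to 19449593), was 14.9, 6.68 and 10.6 in IVM and 3.34, 0.990 and 2.80 in IVO samples. These groups did not overlap although the replicates of each varied widely, and the log2FC was -1.81 (SE 0.39, adjusted p = 0.0172). Without the first or the third IVM sample the call was lost, with log2FC of -1.56 and -1.79. The presequence receptor Tomm20 (chromosome 8, 127657416 to 127672690) had 139, 235 and 205 FPKM in IVM and 64.5, 91.8 and 89.8 FPKM in IVO samples. Its lowest IVM value was above its highest IVO value, with a log2FC of -1.21 (SE 0.25, adjusted p = 0.0157), and the call was lost with median-ratio scaling (-0.89) and without the second (-1.05) or the third (-1.15) IVM sample. The central receptor Tomm22 did not pass the test, with 15.9 ± 1.62 FPKM in IVM and 15.0 ± 1.29 FPKM in IVO (SD, n = 3), and its log2FC of -0.07 (SE 0.19, adjusted p = 0.811) turned to 0.23 with median-ratio scaling.

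Tomm6, another small subunit, overlaps a second gene. Its FPKM was 7.33, 12.8 and 9.50 in IVM and 7.30, 5.90 and 6.44 in IVO samples. The lowest IVM and the highest IVO value almost met, and Tomm6 did not pass the test (log2FC -0.50, SE 0.24, adjusted p = 0.187). Gm21981, a protein-coding gene annotated on the same strand (chromosome 17, 47997664 to 48005380), shares 859 exonic bases with Tomm6 (47968416 to 47999311), so fragments in these bases could have been given to either gene. Gm21981 was measured at 97.6, 64.3 and 48.9 FPKM in the IVM samples and listed at 0 in all 3 IVO samples. Summed over both genes, the FPKM was 105, 77.1 and 58.4 in IVM and 7.30, 5.90 and 6.44 in IVO samples, with a log2FC of -3.39 (SE 0.25, adjusted p = 8.19e-04). Gm21981 made up most of this sum in every IVM sample and alone had a log2FC of -6.10 (SE 0.28, adjusted p = 3.81e-04). The difference of the sum therefore follows Gm21981 and does not show a fall of Tomm6. This sum was chosen after the values were seen, and each gene's FPKM rests on its own listed length (749 bases for Tomm6 and 2721 for Gm21981). Tomm34, a cytosolic cochaperone that binds precursors and carries the TOM name, had 36.7 ± 6.24 FPKM in IVM and 42.7 ± 9.26 FPKM in IVO (SD, n = 3; log2FC 0.20, SE 0.23, adjusted p = 0.573).

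Of the TIM23 complex and its motor, 8 of 9 genes were tested. Of these 8, 2 were called lower, a share near the 17.9% of all tested genes. The median log2FC was -0.48, against -0.30. Timm17b and Timm17a encode alternative forms of the subunit that forms the translocation path together with Timm23. The FPKM of Timm17b (chromosome X, 7765574 to 7776168) was 52.4, 39.8 and 51.6 in IVM and 6.66, 2.48 and 8.06 in IVO samples, a log2FC of -2.96 (SE 0.37, adjusted p = 0.00289). The FPKM of Timm17a (chromosome 1, 135217009 to 135241522) was 18.9, 17.3 and 17.4 in IVM and 18.2, 14.5 and 11.2 in IVO samples, and its log2FC of -0.29 (SE 0.22, adjusted p = 0.387) became 0.0076 with median-ratio scaling. Timm17b was thus the higher of the pair in every IVM sample and the lower in every IVO sample. Timm17a made up 26.5%, 30.3% and 25.2% of the FPKM of the pair after IVM and 73.2%, 85.4% and 58.2% after IVO. The mean log2 ratio of Timm17a to Timm17b was -1.36 ± 0.19 in IVM and 1.30 ± 0.86 in IVO (SD, n = 3). The ratio within a library does not depend on how the libraries are scaled apart from the pseudocount, and the groups differed by 2.67 with an exact two-sided permutation p of 0.1, the smallest that 3 against 3 samples can give.

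Pam16 encodes a regulatory subunit of the motor that pairs with the J-protein on the matrix side. The FPKM of Pam16 (chromosome 16, 4434328 to 4442864, minus strand) was 525, 323 and 319 in IVM and 123, 102 and 130 in IVO samples. The groups did not overlap, with a log2FC of -1.67 (SE 0.24, adjusted p = 0.00443). This gene has a near-identical copy, Gm9803 (named Pam16l in the annotation), a protein-coding gene of 1 exon on chromosome 10 from 43400077 to 43400642. Their annotated transcripts, of 596 and 563 bases, are identical over 534 bases that run from the first base of the copy, and the coding sequence is 375 bases long in each. The place where they part in GRCm39 is printed here, from the GENCODE transcripts, with the bases after the identical run in capitals.
Pam16, chr16:4434328-4434357, minus strand: aaatgtcttttgcgtgtttCTCCACTGCAT
Gm9803, chr10:43400595-43400624, plus strand: aaatgtcttttgcgtgtttAAAAAAAAAAA
Few bases separate the transcripts, and the division of fragments between them is an estimate. Gm9803 was listed at 61.8, 119 and 75.2 FPKM in IVM and 65.5, 79.3 and 51.3 FPKM in IVO samples (log2FC -0.34, SE 0.29, adjusted p = 0.438). The sum of both genes was 587, 442 and 394 FPKM in IVM and 189, 182 and 182 FPKM in IVO samples. Every IVM sum was more than double every IVO sum, with a log2FC of -1.34 (SE 0.19, adjusted p = 0.00420), and this sum too was chosen after the values were seen.

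**Figure D3:**
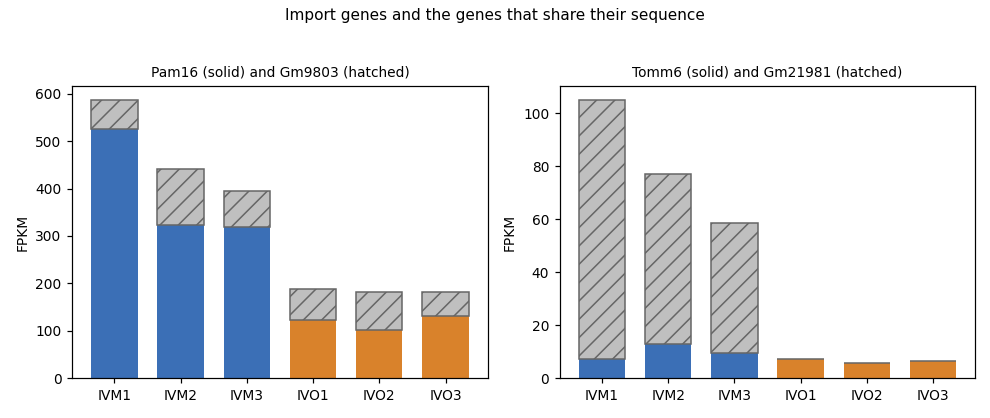
FPKM per sample of Pam16 with its copy Gm9803 (left) and of Tomm6 with the overlapping Gm21981 (right), stacked, with the import gene solid (blue in IVM, orange in IVO) and the other gene hatched. The stacked sum is 394 to 587 FPKM in IVM against 182 to 189 FPKM in IVO on the left, and the hatched part is absent from the IVO bars on the right, where Gm21981 is listed at 0.

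The other TIM23 genes did not pass both thresholds. Timm44, which anchors the Hsp70 motor to the channel, had 10.6, 30.6 and 22 FPKM in IVM and 8.72, 8.78 and 6.76 FPKM in IVO samples, with a log2FC of -1.17 (SE 0.37, adjusted p = 0.0600). Its groups did not overlap, and without the first IVM sample, which had the lowest of the IVM values, it was called lower (-1.58, adjusted p = 0.0208). Timm50, the receptor of TIM23 on the intermembrane side, lay between 0.75 and 4.32 FPKM in IVM and between 0.860 and 1.22 FPKM in IVO samples (log2FC -0.66, SE 0.42, adjusted p = 0.30). Its second IVM sample lay below all IVO samples, and without that sample Timm50 was called lower (-1.12, adjusted p = 0.0439). The channel protein Timm23 was measured at 341 ± 34.6 FPKM in IVM and 376 ± 35.5 FPKM in IVO (SD, n = 3; log2FC 0.14, SE 0.16, adjusted p = 0.568). Timm23 has 6 near-identical pseudogenes in the annotation, which together held 0.090 to 1.69 FPKM in IVM and 0.450 to 5.77 FPKM in IVO samples, and a stretch of 444 bases matches the separate gene Vps4a at 98.0% identity (16.2 to 27.2 FPKM in IVM and 10.7 to 15.6 FPKM in IVO). Timm21, which tethers TIM23 to TOM, had 174 ± 40.7 FPKM in IVM and 211 ± 30.5 FPKM in IVO (log2FC 0.29, SE 0.23, adjusted p = 0.398). Grpel1, the nucleotide exchange factor of the motor, had 2.78 ± 0.604 FPKM in IVM and 2.62 ± 0.398 FPKM in IVO, and its log2FC of -0.05 (SE 0.24, adjusted p = 0.900) became 0.18 with median-ratio scaling.

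Of the TIM22 complex and the small TIMs, 8 of 9 genes were tested and 3 were called lower, against 17.9% of all tested genes. The median log2FC was -0.72, against -0.30. Timm22, the channel for carrier proteins (chromosome 11, 76297778 to 76309269), had 192, 151 and 166 FPKM in IVM and 53.1, 27.5 and 106 FPKM in IVO samples. The groups did not overlap, but the IVO samples differed widely among themselves, with a log2FC of -1.63 (SE 0.45, adjusted p = 0.0378). The call of Timm22 was lost without any 1 of the 3 IVM samples (log2FC -1.53, -1.71 and -1.64), without the first (-1.62) or the second (-1.15) IVO sample, and with median-ratio scaling (-1.31). Timm22 also shares 1710 exonic bases with Abr on the opposite strand, which had 431 to 647 FPKM in IVM and 145 to 305 FPKM in IVO samples, and a use of strand in counting is not given in the sources used here. Timm9 and Timm10 form the chaperone that escorts carrier proteins across the intermembrane space, and Timm10b docks it at TIM22.

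The FPKM of Timm9 (chromosome 12, 71168589 to 71183475) was 174, 130 and 124 in IVM and 32.9, 42.8 and 31.5 in IVO samples. All IVM values lay far above all IVO values, with a log2FC of -1.96 (SE 0.22, adjusted p = 0.00202). The FPKM of Timm10b (chromosome 7, 105289263 to 105292847) was 33.9, 26.4 and 38.2 in IVM and 10.5, 14.7 and 15.1 in IVO samples, without overlap. Its log2FC was -1.23 (SE 0.23, adjusted p = 0.0110), a call that held without each sample in turn but not with median-ratio scaling (-0.92). Timm10 had 56.9, 71.8 and 54.0 FPKM in IVM and 30.4, 26.5 and 43.4 FPKM in IVO samples. It passed the threshold on the adjusted p-value alone (log2FC -0.86, SE 0.24, adjusted p = 0.0400), and without the third IVO sample it was called lower (-1.06, adjusted p = 0.0257).

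Timm8a1, Timm8a2, Timm8b and Timm13 belong to the second kind of small TIM chaperone, which serves a narrower set of proteins such as Timm23. Timm8b had the highest FPKM of the 36 genes in every sample, with 1060.1, 1426 and 959 in IVM and 766, 764 and 759 in IVO samples. Its groups did not overlap, and it did not pass the test (log2FC -0.57, SE 0.18, adjusted p = 0.0592). Of the 27 tested members, Timm8a1 (chromosome X, 133433731 to 133442649) was the 1 with all IVO values above all IVM values. It had 3.20, 2.86 and 4.91 FPKM in IVM and 9.45, 8.97 and 5.35 FPKM in IVO samples. The third IVO sample lay close to the third IVM sample, and the log2FC of 0.93 (SE 0.29, adjusted p = 0.0570) missed both thresholds. With median-ratio scaling (1.20, adjusted p = 0.0258) or without the third IVO sample (1.16, adjusted p = 0.0370), Timm8a1 was called higher. The pseudogene Gm9797 matches Timm8a1 at 100% identity over 294 bases. It had 0.63, 1.98 and 0 FPKM in IVM and 0 in all IVO samples. The lncRNA Gm63661 matches Timm8a1 at 99.8% identity over 1218 bases and has no FPKM here. The division of fragments between these genes is uncertain. The share of Timm8a1 in the summed FPKM of Timm8a1 and Timm8b was 0.301%, 0.200% and 0.510% in IVM and 1.22%, 1.16% and 0.70% in IVO samples, and the log2 ratios of the groups differed by 1.5 (exact two-sided permutation p = 0.1). Timm8a2, the other mouse form of Timm8a, had 58.9 ± 25.0 FPKM in IVM and 43.3 ± 12.6 FPKM in IVO (SD, n = 3), and its log2FC of -0.37 (SE 0.39, adjusted p = 0.538) turned to 0.11 with quantile normalization. Timm13 had 2.59 ± 0.517 FPKM in IVM and 1.51 ± 0.790 FPKM in IVO (log2FC -0.55, SE 0.30, adjusted p = 0.229).

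Of the SAM and metaxin genes, all 3 were tested and 1, Mtx2, was called lower, against 17.9% of all tested genes. The metaxins are outer membrane proteins that work with Samm50, the core of SAM. The FPKM of Mtx2 (chromosome 2, 74656139 to 74709527) was 60.8, 40.2 and 43.7 in IVM and 3.81, 3.13 and 4.42 in IVO samples. This was the most negative log2FC of the 27 genes, at -3.35 (SE 0.23, adjusted p = 6.53e-04), and the mean FPKM was 12.7-fold higher in IVM oocytes (48.2 ± 11.0 against 3.79 ± 0.645, SD, n = 3). The FPKM of Mtx1 was 7.69, 4.56 and 5.59 in IVM and 3.0, 1.53 and 3.19 in IVO samples, without overlap and without passing the test (log2FC -0.97, SE 0.29, adjusted p = 0.0532). Mtx2 was the more abundant of the pair in all 6 samples. Mtx1 made up 11.2%, 10.2% and 11.3% of the summed FPKM of the pair in IVM and 44.1%, 32.8% and 41.9% in IVO samples. The mean log2 ratio of Mtx1 to Mtx2 was -2.83 ± 0.064 in IVM and -0.45 ± 0.23 in IVO (SD, n = 3), a difference of 2.38 (exact two-sided permutation p = 0.1, and adjusted p = 0.1 over the 3 pairs compared, which are those of a chosen list of 7 in which both genes passed the filter). Samm50 had 2.35 ± 0.564 FPKM in IVM and 1.59 ± 0.261 FPKM in IVO, and its log2FC of -0.36 (SE 0.25, adjusted p = 0.339) turned to 0.06 with quantile normalization. Samm50 shares 111 exonic bases with the lncRNA Gm49513 on the same strand, which had 144 to 282 FPKM in IVM and 194 to 231 FPKM in IVO samples.

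**Figure D4:**
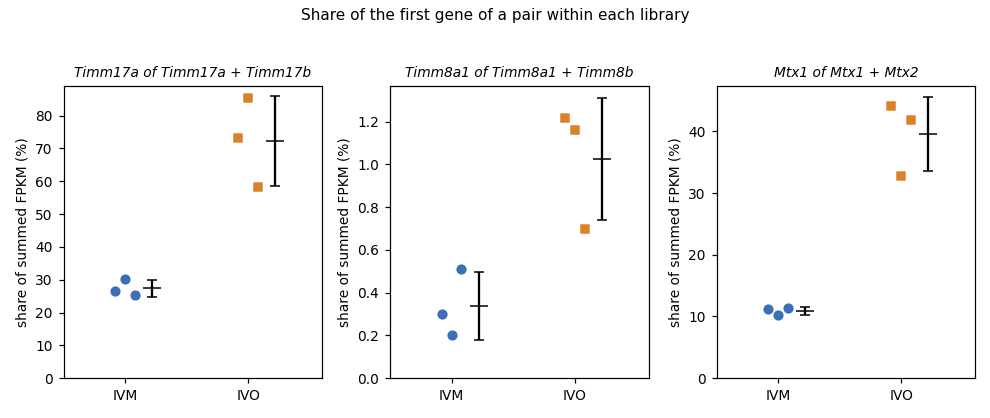
Share of the first gene in the summed FPKM of 3 pairs of paralogs, as percent, for each of the 3 IVM (blue circles) and 3 IVO samples (orange squares), with the mean and SD of each group as a bar at the right of its points. The share of Timm17a was 27.4% ± 2.67 in IVM and 72.3% ± 13.6 in IVO, and that of Mtx1 was 10.9% ± 0.637 in IVM and 39.6% ± 5.96 in IVO. The groups did not overlap in any panel.

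In the disulfide relay, Gfer encodes the sulfhydryl oxidase that reoxidizes the import receptor Chchd4. The FPKM of Gfer (chromosome 17, 24911330 to 24915553) was 21.0, 8.80 and 18.7 in IVM and 5.61, 5.55 and 4.28 in IVO samples. The groups did not overlap, with a log2FC of -1.40 (SE 0.33, adjusted p = 0.0239), and the call was lost without any 1 sample other than the second IVM sample (log2FC -1.18 to -1.46). It was also lost without a filter (adjusted p = 0.0563), with same-sum scaling (-1.11, adjusted p = 0.0688) and with quantile normalization (-0.90, adjusted p = 0.0724). With median-ratio scaling the call held (-1.12, adjusted p = 0.0472). A stretch of 573 bases of Gfer matches Dst at 99.8% identity, and Dst had 168 to 356 FPKM in IVM and 106 to 212 FPKM in IVO samples. Gfer also shares 609 exonic bases with Noxo1 on the opposite strand, which had 6.90 to 7.78 FPKM in IVM and 7.55 to 13.6 FPKM in IVO samples. The division between these genes is uncertain. Of MPP, which cleaves presequences, the catalytic subunit Pmpcb was tested. Pmpcb had 4.29, 0.880 and 2.17 FPKM in IVM and 1.63, 0.610 and 1.06 FPKM in IVO samples, with overlap (log2FC -0.62, SE 0.42, adjusted p = 0.333).

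The 9 genes under the filter included subunits that the import machinery is known to need. Tomm20l and Tomm6os were listed at 0 in every sample, and Tomm40l was listed at 0 in all but the second IVO sample (0.030 FPKM). The relay receptor Chchd4 had 0.030 to 0.250 FPKM, worth 1.70 to 15.5 fragments. Tomm70a, the receptor for carrier proteins, ranged from 0.14 to 0.930 FPKM, Pmpca from 0.190 to 0.880, Grpel2 from 0.190 to 0.730 and the TIM22 subunit Timm29 from 0.390 to 1.05. The small TOM subunit Tomm5 had 0.290, 0.240 and 0.240 FPKM in IVM and 1.46, 0.720 and 0.570 FPKM in IVO samples. These were worth 2.50, 2.50 and 2.40 fragments in IVM, which is under the floor of 3, and 12.6, 6.30 and 5.0 in IVO samples. No test was run on these 9 genes.

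Other genes of the pathway that are not members, among them the motor, the insertases, the folding proteins and the MICOS complex, were counted for comparison. Of 26 listed, 23 were tested, 3 (13%) were called lower and 1 (4.35%) higher, against 17.9% and 0.606% of all tested genes, and the median log2FC was -0.25, against -0.30. The share called lower was thus no higher than over all tested genes. At an unadjusted p-value under 0.05 there were 6 lower and 2 higher of the 23, against 31.4% and 5.56% of all tested genes. Immp2l, a peptidase of the inner membrane, had 31.3, 26.2 and 17.3 FPKM in IVM and 6.35, 5.21 and 3.42 FPKM in IVO samples (log2FC -2.11, SE 0.30, adjusted p = 0.00437). Mtch1, an outer membrane insertase, had 6.52, 3.07 and 9.61 FPKM in IVM and 0.880, 0.890 and 1.44 FPKM in IVO samples (log2FC -1.74, SE 0.37, adjusted p = 0.0169). Aifm1, which holds Chchd4 at the inner membrane, had 178, 288 and 122 FPKM in IVM and 65.5, 61.9 and 106 FPKM in IVO samples (log2FC -1.28, SE 0.35, adjusted p = 0.0394). Each of these 3 was lower in every IVO sample than in any IVM sample. The call of Mtch1 was lost without the first IVM (-1.68) or the second IVO sample (-1.68), and that of Aifm1 without the first (-1.30) or second (-0.96) IVM or the first (-1.18) or second (-1.14) IVO sample and with median-ratio scaling (-0.96). Hspa9, the mitochondrial Hsp70 that drives the PAM motor, was called higher in IVO oocytes, with 23.5, 23.7 and 38.9 FPKM in IVM and 61.5, 58.7 and 55.5 FPKM in IVO samples (log2FC 1.04, SE 0.24, adjusted p = 0.0210). Its IVO values lay above all IVM values, and the call was lost without the first (0.92) or second (0.93) IVM or the first (1.01) or second (1.04) IVO sample.

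In maturing oocytes the length of the poly(A) tail of an mRNA depends on its 3′ end, where a cytoplasmic polyadenylation element (CPE) acts together with the poly(A) signal. The last 100 bases of the canonical transcript of each gene were searched on the mRNA strand for the poly(A) signals AATAAA and ATTAAA and for the CPE letters TTTTAT and TTTTAAT, the last of which can overlap AATAAA. A CPE match was held by 7 of the 35 protein-coding members (20%: Grpel1, Timm13, Timm29, Tomm34, Tomm5, Tomm6 and Tomm70a), against 18.7% of the 10303 tested protein-coding genes and 15.9% of all 21563. None of the 10 genes called lower held one, against 4 of the 17 tested genes that were not called. Over all tested protein-coding genes, 12.5% of 1463 called lower and 19.7% of 8840 not called lower held one. A poly(A) signal was found in 25 of the 35 genes (71.4%) and in 5 of the 10 called lower, against 78.8% of tested protein-coding genes. The windows of those 5 genes are shown beside those of Tomm5 and Tomm6, which were picked from the 7 members with a match. Tomm5 was under the filter and not tested. The poly(A) signal is in capitals and, in Tomm5, the overlapping CPE match as well.
Timm9, chr12:71168589-71168618, minus strand: tttgagccaaaaAATAAAgagtttctgtgt
Tomm7, chr5:24043832-24043861, minus strand: ccgagtgttgggATTAAAggagtgtaccac
Tomm20, chr8:127657427-127657456, minus strand: cttggcatttcaAATAAAcaccttcatgat
Timm10b, chr7:105292811-105292840, plus strand: atgtatcctttcAATAAAcatgtgctgtga
Pam16, chr16:4434343-4434372, minus strand: ttatagcctagtAATAAAtgtcttttgcgt
Tomm6, chr17:47997574-47997603, minus strand: ttacaaaaatcaAATAAAcatgacttgtat
Tomm5, chr4:45105213-45105242, minus strand: gtctatatTTTTAATAAAcattctgatgaa
The match in Tomm6 lies outside the window. These are matches of letters in annotated transcripts, whose ends can differ from those used in oocytes. The canonical transcript is much longer than the length listed with the FPKM for Timm10b (3273 against 494 bases) and Timm9 (2266 against 836 bases), while for Pam16 both are 596 bases. The end that was searched need not be that of the transcript that was measured. Tail lengths were not measured here, and the shares were not tested.

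Transcript length was compared because length enters each FPKM and the inferred mean fragment length was 204 to 218 bases in IVM and 248 to 264 bases in IVO libraries. Across the 27 genes the log2FC had a Spearman's rho of 0.14 and a Pearson's r of 0.02 with the listed length, against 0.27 and 0.28 across all tested genes. Genes of 1 library share its depth, and these values are a description. The median listed length was 1522 bases for the 27 genes, 1377 bases for the 10 called lower and 1536.5 bases for all tested genes. With the trend of expression with length removed, 9 of the 10 were called lower, with Timm10b at -0.92. Mtx1 (-1.12) and Timm44 (-1.34) were added, and 3079 of all genes were called lower.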

How the data were processed

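RNA-seq was performed on 3 IVM and 3 IVO pools of MII oocytes, grouped by the sample titles. The authors amplified full-length cDNA (SMART-Seq v4), sequenced paired-end Nextera XT libraries, aligned them to GRCm39 with HISAT2 2.1.0, and deposited FPKM per gene from RSEM 1.3.3. The authors tested counts with DESeq2 1.24.0, and counts were not used here. The group means in the table were not used.

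IVO was compared with IVM by limma 3.58.1 (lmFit, eBayes with trend, group alone, two-sided) in R 4.3.3 on log2(FPKM + 1), without further scaling, for 18818 genes with a mean of at least 1 FPKM. Benjamini-Hochberg adjustment covered all of them. On simulated data, 197 of 200 changed genes were called among 18818, with 6 false calls. All planted changes exceeded the log2FC of the called genes Gfer, Timm10b and Tomm20 and were placed in genes above a low level. The simulated spread was normal and depended on expression level alone. The share called therefore does not hold for changes near the threshold or for genes with wider spread. Ratios of paralogs were compared by exact permutation tests. Alternatives were another pseudocount and other filters, median-ratio, same-sum and quantile scaling, Ensembl genes only, eBayes without trend, the replicate block, removal of the length trend by lowess (span 0.3), and leaving out each sample, with Pam16 and Tomm6 each summed with 1 gene of shared sequence added after seeing the data. Python 3.11.15 served for the remaining steps.

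Depth was inferred from low FPKM values of 10933 genes with 1 transcript of 500 to 2000 bases. These values came out as whole fragment numbers (within 0.15) for 77.8% to 79.7% per library, too few for a count test. The floor of 3 fragments covers counting error only.

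Coordinates, overlaps, copies (at least 90% identity over 200 bases) and 3′ ends came from GENCODE M39. Every tested import gene is named with its test, called genes and paralog pairs with all 6 values, and of the other import genes only those called. The members, lists and tests were chosen with earlier results of these data known. The study names the pools as biological replicates and does not say which mice gave which pool.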

Additional observations from a re-analysis of the deposited data

How the results depend on the processing

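The pools give limits that no setting removes: FPKM is relative within a library, a use of strand for overlapping genes is not given in the sources used here, and 3 pools a group leave a wide error on genes with few fragments. The calls of all 27 genes were the same with a pseudocount of 0.1 (median log2FC -0.93, against -0.66), Ensembl genes only (1972 of all genes lower), eBayes without trend, and the replicate block, in which the replicate number was a factor. With the block, 10 import genes were lower and 0 higher (2899 and 92 of all genes), and other import genes called higher came to 0. The correlations of same-numbered samples were -0.0618, -0.0176 and -0.107, which show no pairing by number. With 3 samples a group they cannot exclude mice or batches shared between samples. Without a filter the median was -0.53 and the rho with length 0.253 (against 0.14), and from a mean of 5 FPKM they were -1.17 and 0.0169. Other scalings gave 1 import gene higher, 2 other import genes higher, and medians of -0.47 (median-ratio), -0.47 (same sum), -0.17 (quantile) and -0.53 (Ensembl genes only with median-ratio). The median of all tested genes moved as well, to -0.04 (median-ratio), -0.03 (same sum) and 0.17 (quantile), against -0.30 without scaling. Medians of all genes with the other pseudocount and filters are not given here. With same-sum scaling and with quantile normalization 6 import genes were lower. Of all genes, 2132 were lower and 387 higher with median-ratio scaling, 2133 and 397 with the same sum, 1580 and 1097 with quantile normalization, and 1420 and 194 with Ensembl genes only and median-ratio scaling, against 3366 and 114. Removal of the length trend gave a rho of -0.0372 with and without the block, 184 of all genes higher and 0 other import genes higher. Pam16 was also summed with its copy Gm9803 and Tomm6 with the overlapping gene Gm21981, chosen after seeing the data. The median was then -0.86, with 11 import genes and 3366 of all genes lower. The added one was Tomm6, whose sum was mostly Gm21981 in the IVM samples, while Tomm6 alone was not called. The matches of Gfer, Timm23 and Timm8a1 were not summed. Directions turned for genes that were never called: Samm50 (0.059) and Timm8a2 (0.11) with quantile normalization, and, in the order median-ratio, same sum and quantile, Timm17a (0.0076, 0.023 and 0.22), Grpel1 (0.18, 0.19 and 0.39) and Tomm22 (0.23, 0.24 and 0.42), with Grpel1 at 0.11 and Tomm22 at 0.13 for Ensembl genes only with median-ratio scaling. Leaving out 1 sample at a time gave 6 to 10 import genes lower and 0 to 1 higher, and medians of -0.85 to -0.62. Of all genes, 2276 to 3174 were lower and 82 to 130 higher in these fits. Other import genes came to 1 to 4 lower and 0 to 1 higher. The rho was 0.0604 to 0.168 and the log2FC of Grpel1 was -0.19 to 0.039. The causes of these shifts were not tested.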
